A study of Mus musculus with 6 samples.

Results

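Homologous recombination repairs broken DNA by copying from a sister chromatid, and the Fanconi pathway unhooks crosslinks between DNA strands and hands the resulting break to recombination. Recombination runs mainly in dividing cells, since the sister chromatid exists only after DNA replication, and activated T cells divide fast. Genes of both pathways were described here in TH17-skewed T cells of the mouse, cultured with or without glutamine. The 34 genes were chosen by name, with earlier results of these data known. A gene was measured where a row of the array table named it alone. This held for 32 of the 34, out of 30702 genes tested. Xrcc2 and Rad54b are not analysed here, the latter because its row also names Fsbp. Each of the 32 genes had 1 row. They were ordered by role into the Fanconi core and ID2 genes (10), the recombinase mediators (11), the helicases and nucleases (6), and the damage kinases with a mismatch sensor (5).

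Both groups came from naive CD4+ T cells of the CD4+CD25-CD62L+CD44- phenotype, obtained by flow sorting and activated through CD3 and CD28 for 3 days. The medium of both held 10% fetal bovine serum. The TH17-skewing cytokines were TGF-beta (1.25 ng/ml) with IL-6 and IL-23 (both at 20 ng/ml), and IL-4, IL-12 and IFN-gamma were each blocked by an antibody at 10 ug/ml. The 3 control arrays had glutamine in the medium and the other 3 had none. The labels call the arrays biological replicates without naming separate mice, so a p-value here reflects only variation among these arrays, which may be technical. They give no strain, sex or age and do not say whether the serum was dialysed. The comparison asks which transcripts differ after 3 days without glutamine, an amino acid that supplies nitrogen for nucleotide synthesis.

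Array medians were 4.18 to 4.21 log2 for the cultures with glutamine and 4.33 to 4.38 for those lacking it. On each array 695 to 887 rows exceeded 16 log2, which a 16-bit scanner cannot reach, so values are given as log2 levels on the deposited scale and changes as log2 differences, not as folds. Of the CD4 T cell markers 9 of 10 were measured, all between 10.60 and 17.42 log2 on every array, and 3 rose and 1 fell. Of the TH17 markers, 4 of the 5 measured fell, among them Il17a (-6.81). Of all genes tested, 13.0% fell and 9.30% rose. Markers of B cells and dendritic cells stayed between 3.24 and 4.92 log2. Of the myeloid markers, 2 of 6 fell, among them Lyz2 (-1.66), and their summed level was 23.98 to 24.91 with glutamine and 21.77 to 22.78 without. Of the CD8 markers Cd8b1 fell by 0.71 and Cd8a (-0.05) did not pass. Their summed log2 level was 11.73 to 12.04 with glutamine and 11.02 to 11.28 without. Of the NK markers Klrk1 fell by 0.80, while Ncr1 (0.12) and Klrb1c (0.14) did not pass. The summed log2 level of the NK markers was 12.33 to 12.74 with glutamine and 11.70 to 12.10 without. The part of these cell types in the repair gene changes was not tested. In RNA from whole cultures, fewer cells that express a gene and less RNA of it per cell cannot be told apart.

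Repair genes of these pathways were mostly lower without glutamine, with 2 exceptions that were higher. Of the 32 measured genes, 21 fell, 2 rose and 9 did not pass the test (limma, adjusted p under 0.05 over all genes). The share that fell was 65.6%, against 13.0% of all genes tested and 24.9% of the genes above the median level. The share that rose was 6.25%, against 9.30% of all genes and 13.7% of those above the median level. In either direction 23 of the 32 passed, against 22.3% of all genes. The largest falls were those of Exo1 (-1.48), Fancb (-1.43), Chek2 (-1.30), Rad54l (-1.18), Brip1 (-1.15) and Fancd2 (-1.10), and these 6 were the members that fell by at least 1 log2, which 2.84% of all genes did. Atm (0.65) and Rad52 (0.39) were the 2 that rose. The median change of the 32 genes was -0.57 log2, against 0.06 over all genes.

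The arrays of the groups did not overlap for 29 of the 32 genes, 27 of them lower without glutamine and 2 higher. Over all genes the groups did not overlap in 43.8%, with 18.8% lower and 25.0% higher. The median level of the 32 genes on single arrays was 8.97 to 9.07 log2 with glutamine and 8.14 to 8.16 without it, so the 3 arrays of each group lay close together. By level with glutamine, the 32 genes stood between percentiles 63.6 and 92.3 of all genes. The change of the 32 genes showed little relation to their level (Pearson r = -0.04, Spearman rho = -0.09, over genes that share the same 6 arrays and are not replicates). After quantile normalization 24 fell and 2 rose (17.1% and 4.73% of all genes), and after centring each array on its median 27 fell and 1 rose (20.0% and 3.96%).

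**Figure D1:**
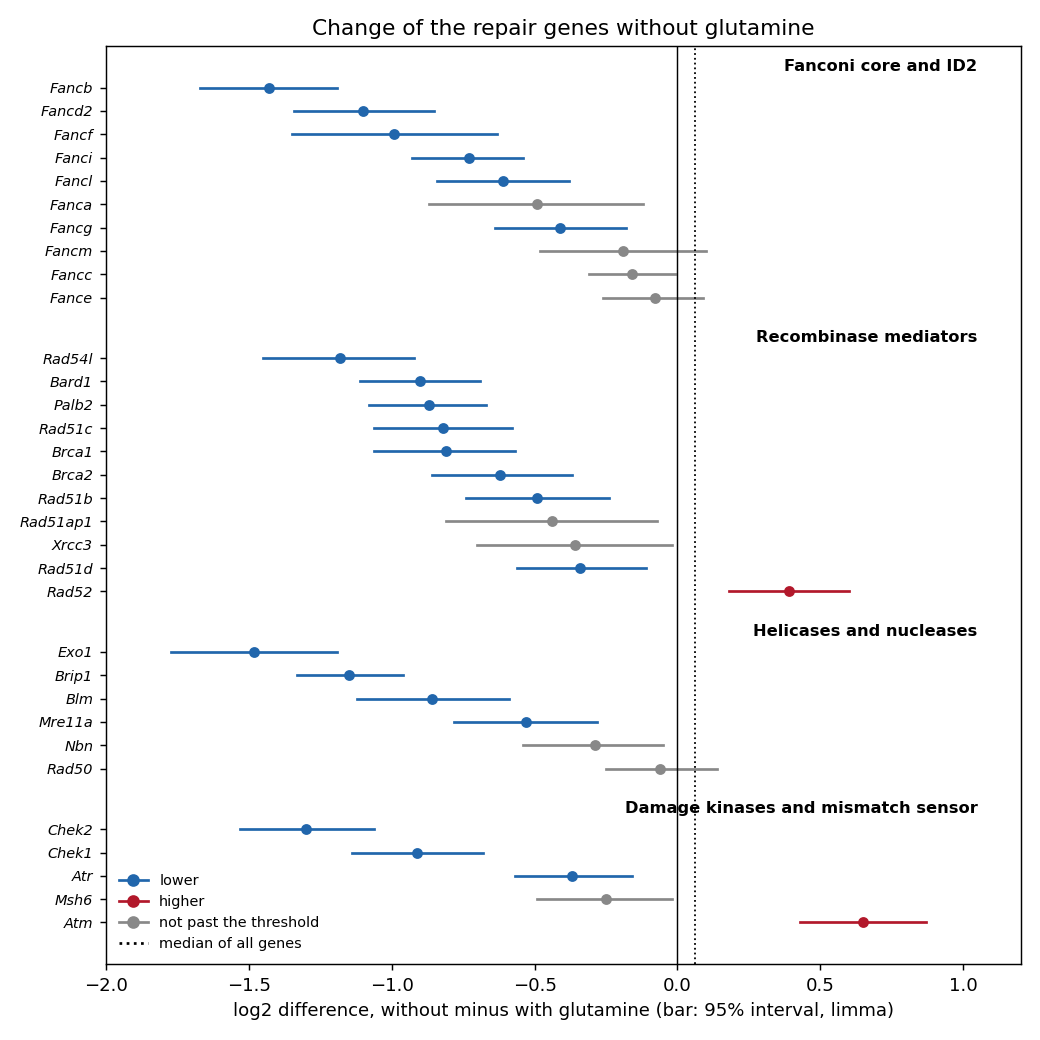
Change of each of the 32 repair genes, as the log2 difference without minus with glutamine (x axis) by gene and role group (y axis). Points are differences of means over 3 arrays a group, bars are 95% intervals from limma, colours give the call, and the dotted line is the median of all genes (0.06). Genes of each role group lie mostly left of 0, and Rad52 (0.39) and Atm (0.65) lie to the right.

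Promoter sequences of 6 members are shown, chosen after their values and motifs were seen. Chek2, Bard1 and Brca2 were picked because they hold the E2F-like letters described here, Fancb as the largest fall with a window, and Atm and Rad52 as the 2 that rose, so the sequences shown are no evidence that the letters go with a fall. They are RefSeq windows of GRCm38.p6, 300 bases long, from 250 before to 50 after a transcription start, matched by symbol, and read 5′ to 3′ on the strand of the gene. Chek2 (chr5:110839733-110840032, + strand), Bard1 (chr1:71102923-71103222, - strand), Brca2 (chr5:150522371-150522670, + strand) and Fancb (chrX:164980342-164980641, + strand) fell. Atm (chr9:53536622-53536921, - strand) and Rad52 (chr6:119902448-119902747, + strand) rose. Capitals mark letters like the site of E2F, the transcription factor family of S phase entry: TTTCCCGC, TTTCGCGC, TTTGCCGC or TTTGGCGC on either strand.
Chek2: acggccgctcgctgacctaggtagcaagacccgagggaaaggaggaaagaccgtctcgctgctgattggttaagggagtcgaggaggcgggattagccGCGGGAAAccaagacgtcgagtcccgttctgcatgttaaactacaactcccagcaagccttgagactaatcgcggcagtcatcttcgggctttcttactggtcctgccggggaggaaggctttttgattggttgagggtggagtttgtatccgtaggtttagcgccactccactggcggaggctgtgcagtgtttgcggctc
Bard1: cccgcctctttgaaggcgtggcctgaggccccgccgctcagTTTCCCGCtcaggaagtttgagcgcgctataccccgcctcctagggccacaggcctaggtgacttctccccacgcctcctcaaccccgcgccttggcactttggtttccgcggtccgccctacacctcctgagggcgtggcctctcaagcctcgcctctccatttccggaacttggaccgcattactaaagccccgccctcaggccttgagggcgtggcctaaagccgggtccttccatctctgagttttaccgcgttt
Brca2: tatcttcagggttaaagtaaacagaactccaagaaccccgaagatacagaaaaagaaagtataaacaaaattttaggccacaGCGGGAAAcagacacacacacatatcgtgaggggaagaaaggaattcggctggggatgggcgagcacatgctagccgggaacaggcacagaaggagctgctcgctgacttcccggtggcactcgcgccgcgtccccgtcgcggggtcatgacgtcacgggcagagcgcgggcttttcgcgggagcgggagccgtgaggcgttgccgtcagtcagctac
Fancb: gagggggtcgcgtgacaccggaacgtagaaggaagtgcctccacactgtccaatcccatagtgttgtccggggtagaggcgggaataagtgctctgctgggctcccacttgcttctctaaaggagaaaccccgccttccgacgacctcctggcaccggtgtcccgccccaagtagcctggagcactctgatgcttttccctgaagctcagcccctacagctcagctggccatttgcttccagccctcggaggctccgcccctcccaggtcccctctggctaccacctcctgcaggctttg
Atm: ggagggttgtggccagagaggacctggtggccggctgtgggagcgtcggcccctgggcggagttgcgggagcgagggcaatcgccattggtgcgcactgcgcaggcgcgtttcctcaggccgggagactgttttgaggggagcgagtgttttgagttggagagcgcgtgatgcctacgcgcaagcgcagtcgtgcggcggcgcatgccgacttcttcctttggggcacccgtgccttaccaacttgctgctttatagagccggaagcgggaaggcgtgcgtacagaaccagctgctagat
Rad52: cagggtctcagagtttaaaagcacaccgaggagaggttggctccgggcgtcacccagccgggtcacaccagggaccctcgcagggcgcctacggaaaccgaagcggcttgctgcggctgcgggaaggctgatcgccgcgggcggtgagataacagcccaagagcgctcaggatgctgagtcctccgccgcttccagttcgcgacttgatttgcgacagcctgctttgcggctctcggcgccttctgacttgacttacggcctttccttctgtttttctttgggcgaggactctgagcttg

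In the windows above, the E2F-like letters begin at position -152 from the start in Chek2, -209 in Bard1 and -168 in Brca2, and they are not in the windows of Fancb, Atm and Rad52. Rad54l (-1.18) and Brip1 (-1.15), which fell by more than Bard1 and Brca2, have none in their windows either. Windows were found for 27 of the 32 measured genes, and not for Exo1, Fancd2, Rad51d, Rad50 and Nbn. Rad51b, Rad51c and Rad54l had several windows, and a gene was counted where any of its windows held the letters. E2F-like letters were in windows of 6 of the 27 genes (22.2%), against 2.60% of 27025 genes with a window and 3.29% of 17492 protein coding ones. The members' windows had a median GC content of 59.7%, against 52.7% over all genes and 56.3% over protein coding genes. Besides Chek2, Bard1 and Brca2, the genes Fancg, Rad51c and Msh6 held the letters. Of these 6 genes 5 fell, with a median change of -0.72, and of the 21 without the letters 13 fell, with a median of -0.53. Only exact matches were counted, so genes without the letters may hold near matches. The letters were in windows of 41.9% of 31 DNA replication genes. TTTGAA, the cell cycle genes homology region of mitotic promoters, was in windows of 2 of the 27 genes (7.41%). It was in those of 20.2% of all genes and of 76.9% of 26 mitosis genes. The 2 members with it fell, with a median change of -0.7, and of the 25 without it 16 fell, with a median of -0.61. CCAAT, the box bound by NF-Y, was in 18 of the 27 genes (66.7%), against 41.1% over all genes. Of these 18 genes 10 fell, with a median change of -0.51, and of the 9 without it 8 fell, with a median of -0.62. These splits by motif were not tested. All motifs were sought on both strands, no match overlapped a match of another motif in the members' windows, and a match describes the letters only.

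The Fanconi core complex is the ubiquitin ligase of the pathway, and it marks the paired proteins FANCD2 and FANCI, together called ID2, at stalled replication forks. Of the 10 genes of this group, 6 fell and 4 did not pass, with a median change of -0.55. Fancb, whose product forms the catalytic module of the core with FANCL and FAAP100, had the largest fall. It measured 7.92, 7.60 and 7.75 log2 with glutamine and 6.33, 6.23 and 6.41 without it. Its change was -1.43 (SE 0.102, adjusted p = 0.000381), and the lowest array with glutamine lay more than 1 log2 above the highest without. Fancl, the ligase itself, fell from 8.38 ± 0.09 to 7.78 ± 0.15 (SD, n = 3, adjusted p = 0.00681).

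The ID2 genes fell together. Fancd2 measured 10.05, 9.98 and 10.05 log2 with glutamine and 9.02, 8.72 and 9.04 without it, a change of -1.10 (SE 0.103, adjusted p = 0.00102). Fanci measured 8.82, 8.77 and 8.62 with glutamine and 8.09, 7.93 and 7.98 without it, a change of -0.73 (SE 0.083, adjusted p = 0.00193). In both genes every array with glutamine was above every array without it.

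Of the 3 genes Fancc, Fance and Fancf, which form 1 module of the core, 1 passed. Fancf, a bridge between core modules, measured 7.03, 6.97 and 6.48 log2 with glutamine and 5.79, 5.92 and 5.79 without it. Its change was -0.99 (SE 0.152, adjusted p = 0.00588), with the third array with glutamine below the other two. Its partners in the same module did not pass: Fancc went from 6.41 ± 0.04 to 6.25 ± 0.02 (adjusted p = 0.112) and Fance from 6.74 ± 0.02 to 6.66 ± 0.10 (adjusted p = 0.457). The 95% intervals of their changes were -0.31 to -0.01 and -0.26 to 0.09, above that of Fancf (-1.35 to -0.63), though the difference between the genes was not tested. Fancc passed after quantile normalization (adjusted p = 0.0267) and after centring (0.0145).

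Fanca and Fancg form another module of the core. Fancg fell by 0.41 (adjusted p = 0.0268), a call that ended without replicate 1 or 3 with glutamine (adjusted p = 0.0792 and 0.0632) and without replicate 1 or 2 of the cultures lacking it (0.0754 and 0.0902). Fanca changed from 8.02 ± 0.23 to 7.52 ± 0.22, with no overlap between the groups, and did not pass (adjusted p = 0.066). It passed with the replicate number as a block (0.0128), after quantile normalization (0.0236) or centring (0.0241), and when only the brighter genes were tested (0.0413). Fancm, the DNA translocase that anchors the complex, measured 9.27, 9.19 and 9.47 log2 with glutamine and 9.25, 8.91 and 9.21 without it. Its groups overlapped, and the interval of its change ran from -0.48 to 0.10 (adjusted p = 0.312).

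**Figure D2:**
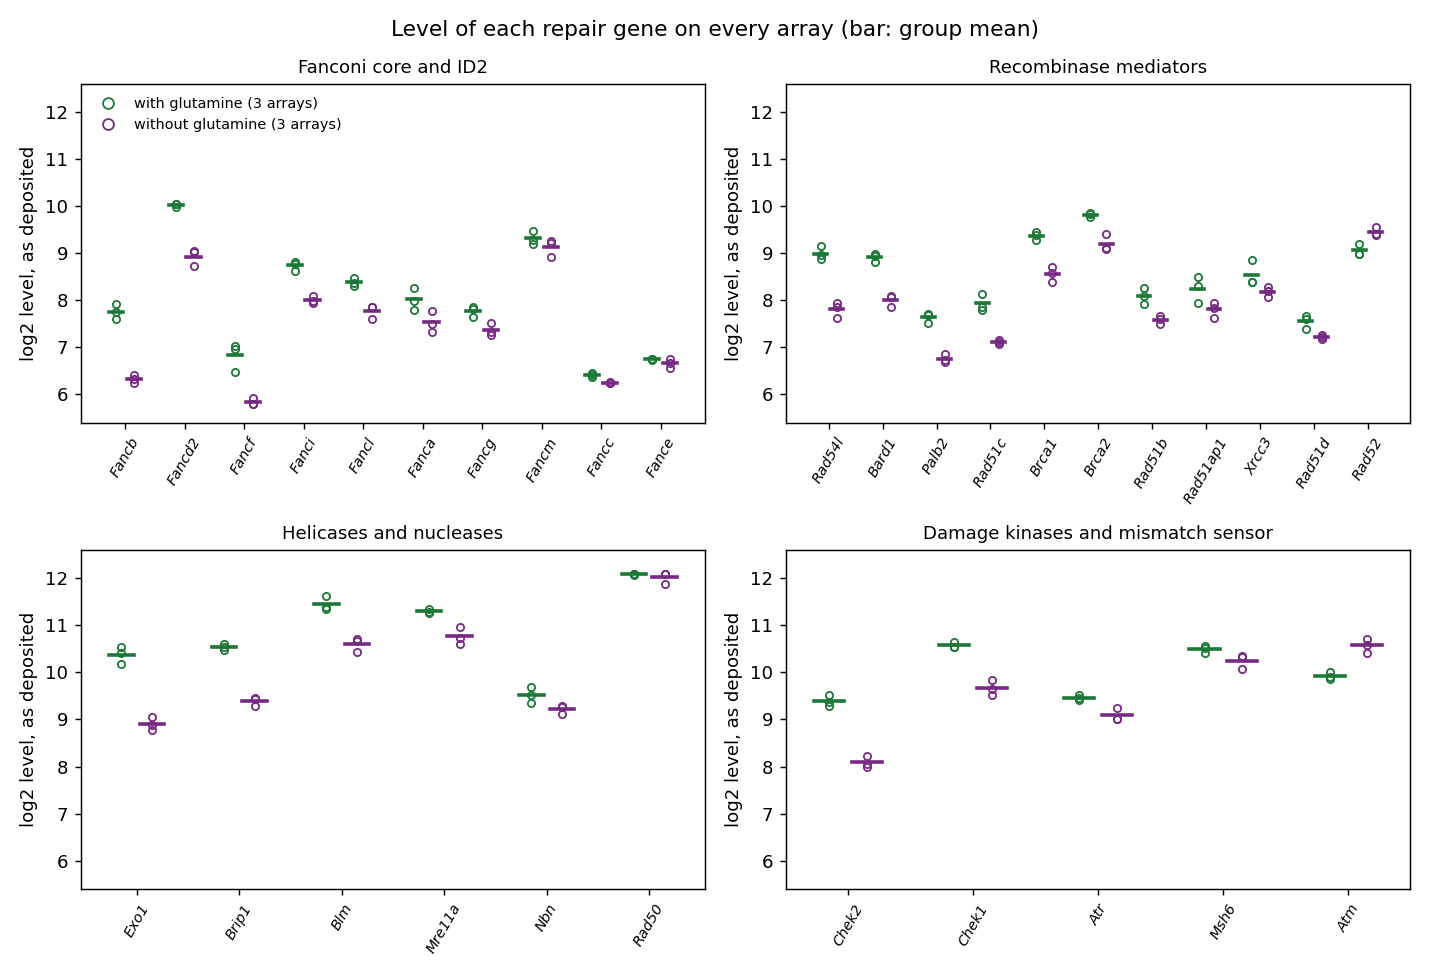
Log2 level, as deposited, of each of the 32 repair genes on all 6 arrays (y axis) in 4 panels by role (x axis: genes, ordered by change). Circles are single arrays, 3 with and 3 without glutamine, and bars are group means. The arrays with glutamine spread most in Fancf, Rad51ap1, Xrcc3 and Fanca. The groups separate in genes such as Fancb, Exo1 and Chek2, and Rad52 and Atm are higher without glutamine.

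Mediators prepare the single strand of a resected break for the search for its template. Of the 11 measured mediator genes, 8 fell (72.7%, against 13.0% of all genes), 1 rose (9.09%, against 9.30%) and 2 did not pass. Their median change was -0.62. All genes of the BRCA1-BARD1, PALB2 and BRCA2 chain, which acts at the resected break, were among those that fell. Bard1, the obligate partner of BRCA1, measured 8.97, 8.82 and 8.94 log2 with glutamine and 8.07, 7.86 and 8.09 without it, a change of -0.90 (SE 0.089, adjusted p = 0.00122). Brca1 fell from 9.37 ± 0.08 to 8.56 ± 0.17 (adjusted p = 0.00293), and the 95% intervals of the partners' changes overlapped, at -1.11 to -0.69 and -1.06 to -0.57.

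Palb2, the link between BRCA1 and BRCA2, measured 7.68, 7.51 and 7.71 log2 with glutamine and 6.73, 6.69 and 6.86 without it. Its change was -0.87 (SE 0.086, adjusted p = 0.0012). Brca2, the last gene of the chain, fell from 9.81 ± 0.05 to 9.20 ± 0.18 (adjusted p = 0.00771). The falls of Brca1, Bard1, Palb2 and Brca2 kept their side of the threshold when any single array was left out.

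Rad54l, a motor protein that helps the strand invade the template, had the largest fall of the mediators. It measured 9.14, 8.88 and 8.95 log2 with glutamine and 7.94, 7.62 and 7.86 without it, a change of -1.18 (SE 0.111, adjusted p = 0.00102). Rad51ap1, which stimulates the same step, changed from 8.25 ± 0.28 to 7.80 ± 0.15 and did not pass (adjusted p = 0.0882). It passed after quantile normalization (0.0472), after centring (0.0265) and without replicate 2 with glutamine (0.0309), the lowest of its control arrays at 7.94.

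Rad51b, Rad51c, Rad51d and Xrcc3 code for subunits of complexes that assist strand exchange, and Rad51c stands in both known complexes. It measured 8.13, 7.86 and 7.80 log2 with glutamine and 7.07, 7.15 and 7.12 without it, a change of -0.82 (SE 0.101, adjusted p = 0.00265). Rad51b fell by 0.49 (adjusted p = 0.0181), a call that ended without replicate 2 with glutamine (0.0591) or replicate 1 or 2 of the cultures lacking it (0.0572 and 0.0623). Rad51d fell by 0.34 (adjusted p = 0.0445), close to the threshold. Its call ended under 5 of the 6 omissions of an array, all but that of replicate 2 with glutamine (adjusted p 0.0795 to 0.121), with array weights (0.0601), with trend and robust (0.0558) and with the replicate block (0.0592). Xrcc3, the partner of RAD51C, measured 8.39, 8.38 and 8.85 with glutamine and 8.06, 8.28 and 8.19 without it, and did not pass (adjusted p = 0.121, and 0.0331 after centring).

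Rad52, which anneals complementary single strands and acts beside the BRCA2 route in mammals, changed in the opposite direction. It measured 8.99, 9.19 and 8.99 log2 with glutamine and 9.39, 9.41 and 9.55 without it, so every array without glutamine was higher. The rise was 0.39 (SE 0.088, adjusted p = 0.0218). It was 0.36 after quantile normalization (adjusted p = 0.0386) and 0.24 after centring, where it missed the threshold (0.113). The call also ended without replicate 1 or 3 with glutamine (adjusted p = 0.0669 and 0.0554) and without replicate 2 or 3 of the cultures lacking it (0.061 and 0.0676).

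Helicases and nucleases open, trim and unwind the DNA ends and joints of recombination. Of the 6 genes, 4 fell (66.7%, against 13.0% of all genes) and 2 did not pass, with a median change of -0.69. Exo1, an exonuclease that resects breaks over long distances and also acts in mismatch repair, had the largest fall of all 32 genes. It measured 10.54, 10.17 and 10.42 log2 with glutamine and 9.05, 8.77 and 8.88 without it, a change of -1.48 (SE 0.122, adjusted p = 0.000666). This placed it at percentile 1.21 of all genes by change, counted from the largest fall.

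Brip1, the BRCA1-bound helicase also known as FANCJ, measured 10.61, 10.47 and 10.53 log2 with glutamine and 9.43, 9.29 and 9.45 without it. Its change was -1.15 (SE 0.078, adjusted p = 0.000339). Blm, the Bloom helicase that dissolves double junctions, measured 11.35, 11.38 and 11.63 with glutamine and 10.66, 10.43 and 10.70 without it, a change of -0.86 (SE 0.111, adjusted p = 0.00329). Both genes had arrays without glutamine that all lay below every control array.

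The MRN complex, made of MRE11, RAD50 and NBN, senses breaks and starts their resection, and 1 of its 3 genes passed the test. Mre11a, the nuclease, measured 11.29, 11.35 and 11.26 log2 with glutamine and 10.97, 10.74 and 10.60 without it. It fell by 0.53 (SE 0.104, adjusted p = 0.0138), a call that ended without replicate 2 with glutamine (0.0518) or replicate 2 of the cultures lacking it (0.0547). Rad50, the ATPase that tethers the ends, measured 12.10, 12.09 and 12.07 with glutamine and 12.10, 11.88 and 12.10 without it. Its groups overlapped, and the interval of its change was -0.25 to 0.14 (adjusted p = 0.633), above that of Mre11a (-0.78 to -0.28), though the difference between the genes was not tested. Nbn, the adaptor that recruits ATM, changed from 9.52 ± 0.17 to 9.23 ± 0.09 and did not pass (adjusted p = 0.0893). It passed after centring (0.0272) and without replicate 3 with glutamine (0.0479).

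The kinases ATM and ATR signal damage to the checkpoint kinases CHK2 and CHK1, respectively, ATM mainly from breaks and ATR from single-stranded DNA at forks. Of these 4 genes and Msh6, 3 fell, 1 rose and 1 did not pass, with a median change of -0.37. Atm rose while the gene of its substrate kinase fell. It measured 9.91, 9.86 and 10.00 log2 with glutamine and 10.71, 10.42 and 10.59 without it, a rise of 0.65 (SE 0.093, adjusted p = 0.00462). The rise was 0.62 after quantile normalization and 0.49 after centring, and it passed when any single array was left out (adjusted p 0.00905 to 0.0217). It placed Atm at percentile 96.1 of all genes by change.

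Chek2, the gene of CHK2, measured 9.52, 9.38 and 9.28 log2 with glutamine and 8.23, 8.0 and 8.06 without it, more than 1 log2 apart at the nearest arrays. Its change was -1.30 (SE 0.097, adjusted p = 0.000468). Chek1, the gene of CHK1, measured 10.65, 10.53 and 10.55 with glutamine and 9.84, 9.52 and 9.64 without it, a change of -0.91 (SE 0.098, adjusted p = 0.00161). The checkpoint kinase genes thus both fell, whereas the genes of the kinases above them had opposite signs.

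Atr measured 9.41, 9.53 and 9.45 log2 with glutamine and 9.25, 9.02 and 9.02 without it, a fall of 0.37 (SE 0.087, adjusted p = 0.0268). The call ended when any array but replicate 1 of the cultures without glutamine was left out (adjusted p 0.0544 to 0.0914), and with the replicate block (0.0604). Msh6, which recognises mismatches, measured 10.56, 10.52 and 10.41 with glutamine and 10.34, 10.07 and 10.32 without it. Its groups did not overlap, but its change of -0.25 did not pass (adjusted p = 0.112, and 0.0349 after centring).

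**Figure D3:**
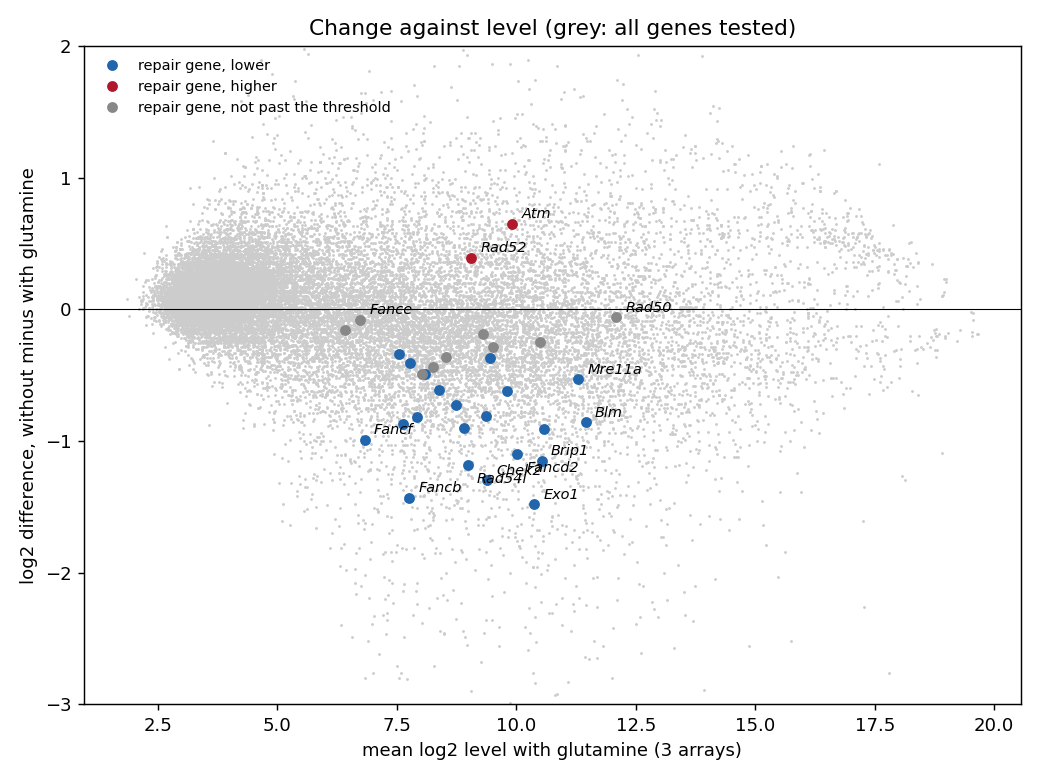
Log2 difference without minus with glutamine (y axis) against the mean log2 level with glutamine over 3 arrays (x axis). Grey points are all genes tested, of which 59 lie outside the plotted range, and coloured points are the 32 repair genes by call. The falls of Fancb, Chek2 and Exo1 lie at levels of 7.76, 9.39 and 10.38 log2, and the correlation of change with level over the repair genes is r = -0.04.

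The other genes of recombination and the Fanconi pathway were also more often lower than higher. Of 46 measured, 20 fell, 1 rose and 25 did not pass, with a median change of -0.26. These are 43.5% lower and 2.17% higher, against 13.0% and 9.30% of all genes and 24.9% and 13.7% of those above the median level. After centring 27 fell and the median was -0.42. Parpbp, whose product restrains recombination, fell from 10.40 ± 0.04 to 8.29 ± 0.08 (adjusted p = 6.79e-05), and Gen1, a resolvase of DNA junctions, fell by 1.64. Ube2t, the ubiquitin-conjugating partner of FANCL, fell (-1.10), as did Usp1, which removes the ubiquitin from ID2 (-0.64). Both were chosen for their place in the pathway after their values were seen. Faap100, a subunit beside FANCB and FANCL, rose by 0.23 (adjusted p = 0.0492), and after either scaling 0 genes of this list rose. Whether the 2 lists differ was not tested.

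Of 27 other damage signalling genes, 16 fell (59.3%), 1 rose (3.70%) and 10 did not pass, with a median change of -0.42. Over all genes 13.0% fell and 9.30% rose, and among those above the median level 24.9% and 13.7%. H2ax, the histone variant that ATM marks at breaks, fell from 13.31 ± 0.08 to 11.84 ± 0.07 (adjusted p = 0.000142), and Clspn, which links ATR to CHK1, fell by 1.17. Uimc1, a ubiquitin reader of the BRCA1-A complex, rose by 0.48 (adjusted p = 0.0157), and after centring 0 genes of the list rose.

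Other repair pathways were measured beside these. By level with glutamine, the medians of their 4 lists stood between percentiles 70.6 and 79.1 of all genes. Among genes above the median level, 24.9% fell and 13.7% rose. Of 12 end joining genes, 1 fell (Xrcc6, by 0.31), 2 rose and 9 did not pass, with a median change of -0.09. Prkdc, the catalytic subunit of DNA-PK, rose by 0.47 and Shld1, a shieldin subunit, by 0.53. The shares were 8.33% lower and 16.7% higher, against 13.0% and 9.30% of all genes. After quantile normalization 2 fell and 1 rose with a median of -0.25, and after centring 3 fell and 0 rose with a median of -0.24. Gtf2h1 (-0.71) and Ercc3 (-0.64) led the falls among 17 nucleotide excision repair genes, and Ercc5 (0.71) and Ercc6 (0.71) led the rises. Of these 17 genes, 6 fell (35.3%) and 4 rose (23.5%), against 13.0% and 9.30% of all genes, with a median of -0.07. The median was -0.14 after quantile normalization and -0.22 after centring. Of 17 base excision repair genes, 6 fell (35.3%, against 13.0% of all genes) and 11 did not pass, with a median of -0.12. That median was -0.28 after quantile normalization and -0.27 after centring. Fen1, the flap endonuclease, fell by 1.09 and Mutyh, an adenine glycosylase, by 0.94. Of the 4 other mismatch repair genes measured, 3 fell (75.0%, against 13.0% of all genes), Pms2 by 0.59 and Pms1 by 0.47.

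Genes of the cell cycle fell on the same arrays. Of 39 DNA replication genes, 30 fell (76.9%, against 13.0% of all genes and 24.9% of those above the median level) and 9 did not pass. Their median change was -0.63, near the -0.57 of the repair genes. Mcm3 (-1.59) and Orc1 (-1.56) led, and Pcna went from 14.77 ± 0.15 to 14.46 ± 0.06 without passing (adjusted p = 0.0576). All 29 measured mitosis genes fell, with a median of -1.80. Plk1 (-2.57) and Aurka (-2.56) led, and the proliferation marker Mki67 fell from 15.96 ± 0.05 to 15.10 ± 0.25 (adjusted p = 0.00505). Of 17 E2F and pocket protein genes, 10 fell (58.8%) and 7 did not pass, with a median of -0.50. E2f1 fell from 7.07 ± 0.08 to 6.58 ± 0.07 (adjusted p = 0.0059), as did E2f2 (-1.11) and Mybl2 (-1.89). The part of the cell cycle in the repair gene changes was not tested.

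**Figure D4:**
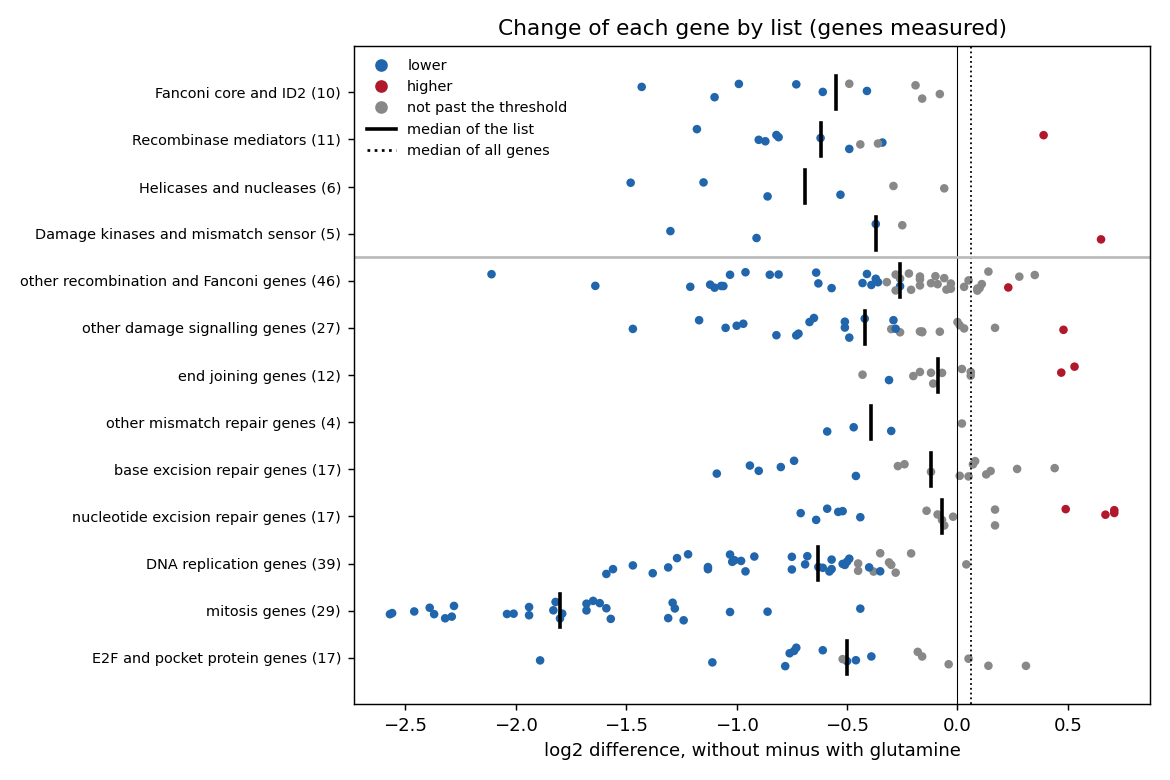
Log2 difference without minus with glutamine (x axis) of each measured gene in the 4 role groups of the repair genes (above the grey line) and in 9 other lists (y axis, with the number of genes). Points are genes coloured by call, black bars are list medians, and the dotted line is the median of all genes. The role group medians run from -0.69 to -0.37, the replication list stands at -0.63, the mitosis list at -1.80 and the end joining list at -0.09.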

How the data were processed

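RNA was measured on 6 Affymetrix GeneChip arrays, 3 per group. Per the submitters' processing notes, the authors used RMA and the Transcriptome Analysis Console 4.0, and they deposited 1 log2 value per row and array. RMA subtracts background, equalises arrays and combines the probes of a row. Its options and the genome build are not given in the sources used. Rows were named by the platform annotation, with RefSeq (GRCm38.p6) supplying current symbols. Among 65956 rows, 31258 carried 1 name, 1492 several, and 33206 are unnamed here. Where a gene had several rows, the brightest was used. No filter on low values was applied.

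The two-sided test was limma's lmFit with eBayes (version 3.58.1, R 4.3.3), for the difference without minus with glutamine, with no covariate and with Benjamini-Hochberg adjustment over all 30702 genes at 0.05. Values are means ± SD of 3 arrays, whose number limits the precision. Of all genes, 3988 fell and 2855 rose, so 41.7% of calls were rises. This was 21.7% after quantile normalization and 16.6% after centring. Every member is reported. Array values are given for up to 4 members per role group with the largest changes, the members that rose, and the brightest in each group that did not pass. From other lists the 2 largest changes each way are named. Members, lists and this rule were chosen with earlier results of these data known. The code of the test was run on simulated independent values with planted changes, which does not show that its calls hold for these data. Alternatives were other scalings, a level filter, other row choices, variance models, array weights, stricter thresholds, the replicate block and leaving out each array.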

Additional observations from a re-analysis of the deposited data

How the results depend on the processing

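Of the 21 repair genes that fell, 16 fell under every alternative other than the rule of at least 1 log2. That rule left 6 (2 Fanconi, 1 mediator, 2 helicase or nuclease and 1 kinase genes) and 0 rises. Calls kept under every alternative were not counted over all genes, so whether the repair genes were more stable than others was not tested. Leaving out single arrays gave 16 to 19 falls and 1 to 2 rises among the repair genes. By role the falls were 5 to 6 in the Fanconi group, 6 to 8 in the mediators, 3 to 5 in the helicases and nucleases and 2 to 3 in the kinase group. Their median change was -0.61 to -0.54, and it was -0.62 after quantile normalization and -0.73 after centring, where the median of all genes stood at -0.048 and -0.095 against 0.060 as deposited. After centring 1 repair gene rose, as at adjusted p under 0.01. Over all genes, leaving out single arrays gave 4060 to 6501 calls, 2666 to 4012 of them falls and 1394 to 2489 rises. Leaving out replicate 2 with glutamine gave 4344, and leaving out replicate 2 or 3 without it gave 4060 or 4558. At adjusted p under 0.01 there were 2943 calls (2143 falls, 800 rises), and by at least 1 log2 there were 1253 (872 falls, 381 rises). Centring gave 6126 falls and 1215 rises, and quantile normalization 1452 rises.

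Deviations from the group mean correlated at 0.066, -0.234 and 0.276 over genes between arrays with the same replicate number. Between arrays with different numbers the correlations were -0.334 to 0.3. The numbers were not taken as pairs, though 3 arrays a group cannot exclude pairing. With the replicate block, 20 repair genes fell and 2 rose, and 6292 genes were called in all. Row choice changed no member, since each has 1 row. The change of Rad51d kept its side of the threshold under 6 of 16 alternatives.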
